A study of Homo sapiens with 4 samples.

Results

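The integrated stress response genes described here are 10 genes: the transcription factors ATF4, ATF5, DDIT3 and CEBPB, the feedback regulators PPP1R15A, TRIB3 and DDIT4, and the metabolic and secreted products CHAC1, ASNS and STC2. They were taken by gene name from a table of 58735 genes, in which each name occurred once. Of the 10 genes, 9 had a mean level of at least 1 FPKM over the 4 libraries, as did 12949 genes in all, and ASNS did not. FPKM is the number of fragments counted on a gene scaled to the length of the gene and to the size of the library, so levels on this scale can be compared between genes within a library.

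The libraries came from U251 and U87, established human glioblastoma (GBM) lines. In each line a Control and cells exposed to brusatol (Bru) for 48 h were sequenced. Bru is a quassinoid, a plant compound known to lower protein synthesis and NRF2 protein. The study gives the dose as the IC50 and Bru as dissolved in DMSO. The concentration for the sequenced cells and whether their Control received DMSO are not given in the sources used here, so a difference between the lines and a difference in dose cannot be told apart. There was 1 library for each line and condition, so no value below has a replicate check, no p-value is given, and every difference compares single libraries.

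The integrated stress response starts when a kinase (PERK, GCN2, PKR or HRI) phosphorylates the translation factor eIF2 on its alpha subunit. Most protein synthesis then slows, while mRNAs with upstream open reading frames, such as that of ATF4, are translated better. ATF4 protein switches on genes for amino acid supply and stress control, its target DDIT3 encodes CHOP, and PPP1R15A encodes GADD34, which brings a phosphatase to eIF2 and ends the signal. The files hold RNA levels, and neither phosphorylation nor protein is measured in them.

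ATF4 and its relatives are known to bind the element TGATGNAA, and cAMP-responsive relatives bind TGACGTCA. Both were searched on both strands in RefSeq promoter windows of GRCh38.p14, which run from 250 bases before a gene's start to 50 bases after it. All 10 genes had a window, 18 windows in total. TGATGNAA was found in 2 of the 10 genes, CHAC1 and ASNS, and TGACGTCA, a motif added after the data were seen, in PPP1R15A alone. Of all 35116 windows, 3.62% held TGATGNAA and 1.85% held TGACGTCA. Counted by gene, as for the 10 genes, the shares were 4.46% and 2.25% of 27305 genes. The 250 bases before the start are shown for the 3 genes with a match, with the matched letters in capitals, and for DDIT3, which had the highest Bru to Control ratio of the 10 genes in both lines and no match. They are credited to RefSeq and printed 5′ to 3′ on the strand of the gene.
CHAC1, chr15:40953221-40953470, plus strand: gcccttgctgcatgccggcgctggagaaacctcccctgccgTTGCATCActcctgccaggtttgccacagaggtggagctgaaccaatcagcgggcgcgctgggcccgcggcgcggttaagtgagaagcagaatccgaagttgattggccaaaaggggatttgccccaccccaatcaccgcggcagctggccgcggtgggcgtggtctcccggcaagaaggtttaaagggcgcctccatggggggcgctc
ASNS, chr7:97872409-97872658, minus strand: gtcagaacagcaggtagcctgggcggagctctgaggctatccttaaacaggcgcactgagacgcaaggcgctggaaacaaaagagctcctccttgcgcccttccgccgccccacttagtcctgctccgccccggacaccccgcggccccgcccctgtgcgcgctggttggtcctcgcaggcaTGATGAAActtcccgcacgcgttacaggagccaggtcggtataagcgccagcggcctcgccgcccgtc
PPP1R15A, chr19:48872171-48872420, plus strand: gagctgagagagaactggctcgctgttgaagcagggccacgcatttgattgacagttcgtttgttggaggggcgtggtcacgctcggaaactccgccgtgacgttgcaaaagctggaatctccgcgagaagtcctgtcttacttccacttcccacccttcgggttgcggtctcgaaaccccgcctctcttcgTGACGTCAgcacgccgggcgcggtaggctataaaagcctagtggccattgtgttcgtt
DDIT3, chr12:57520515-57520764, minus strand: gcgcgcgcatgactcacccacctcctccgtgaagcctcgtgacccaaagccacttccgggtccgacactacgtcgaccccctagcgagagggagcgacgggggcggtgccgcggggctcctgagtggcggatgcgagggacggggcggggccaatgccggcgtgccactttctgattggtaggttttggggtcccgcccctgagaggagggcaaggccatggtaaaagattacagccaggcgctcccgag

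The match of CHAC1 reads on the opposite strand as TGATGCAA, the form held by 0.866% of windows, and begins 209 bases before the start. That of ASNS begins 68 bases before the start and that of PPP1R15A 58 bases before it. Matches of letters are a description of these windows, and a window without a match says nothing of binding elsewhere. Over the 8925 of 10851 tested protein-coding genes that had a window, the median log2 ratio of Bru to Control was -0.05 in U251 for the 237 genes with TGATGNAA and -0.03 for the 8688 without it. In U87 both medians were -0.05. For the 369 genes with TGACGTCA the median was 0.07 in U251 and -0.01 in U87, against -0.04 and -0.05 for the 8556 without it.

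Upstream ATGs were counted in the leader, the bases before the coding start, of the main annotated transcript. Of the 10 genes, 7 had at least 1 upstream ATG, and each of those 7 had at least 2, compared with 53.4% of 10839 tested coding genes with at least 1 and 32.2% with at least 2. The leader of ATF4 was 882 bases long and held 7 upstream ATGs, 5 of them in a frame that closed before the coding start and 2 in a frame that ran past it. ATF5 had 2 in 377 bases, with 1 frame closed and 1 running past the start. DDIT3 had 2 in 209 bases, with 1 running past the start and 1 in frame with it. This holds for the 1 transcript examined, of 940 bases. Leaders of other DDIT3 transcripts were not examined and may hold closed frames. PPP1R15A had 2 in 269 bases, both closed. TRIB3 had 3 in 553 bases, ASNS 2 in 529 and STC2 11 in 1310, all of them closed. CEBPB, DDIT4 and CHAC1 had none, in leaders of 300, 201 and 20 bases, the last leaving little room for one. The median leader of the tested coding genes was 205 bases, and the counts were not adjusted for length. These features concern translation, which the libraries do not measure.

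The recovered fragments on genes, called reads here, numbered between 17083896 and 21453561 per library. For a gene of 1 kilobase, 3 reads corresponded to an FPKM of 0.143 to 0.172. Over all tested genes the log2 ratios of Bru to Control had a median of -0.03 for U251 and -0.04 for U87. Among markers of GBM cells, VIM was at 606 to 701 FPKM in the 4 libraries and CD44 at 94.5 to 125. SOX2 was at 129 and 91.2 FPKM in U251 Control and Bru but had 0 and 2 reads in the U87 libraries, and GFAP was at 2.42 and 1.08 FPKM in U251 and at most 0.21 in U87. NES was at 125 FPKM in Control and 50.6 in Bru of U251 and at 1.46 and 0.57 in U87, a fall past 2-fold in each line (log2 -1.30 and -1.23), while OLIG2 had 2 to 61 reads. Of 6 markers of other cell types, none had a mean of 1 FPKM, and the largest count was 110 reads, of the myelin gene MBP in U87 Control. The other 5, markers of blood, epithelial, liver, neuronal and endothelial cells, had at most 70 reads in any library.

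In U251, 3 of the 9 tested genes rose more than 2-fold with Bru and none fell more than 2-fold. The 3 were DDIT3, PPP1R15A and ATF5. Over all tested genes, 3.36% rose and 5.44% fell past the same cutoff, a log2 ratio above 1 or below -1 on FPKM + 0.1. In U87 none of the 9 genes rose or fell past it, against 1.92% of all genes rising and 1.41% falling. These shares cover every type of gene, and were not computed for all tested protein-coding genes. Among the 8688 tested protein-coding genes with a promoter window and without TGATGNAA, 2.07% rose and 4.05% fell in U251. In U87 0.276% of them rose and 0.495% fell. The median log2 ratio of the 9 genes was 0.63 in U251, with 5 genes above 0 and 4 below, and 0.43 in U87, with 7 above and 2 below. With ASNS included, the medians of the 10 genes were 0.22 and 0.37. Since these are bulk libraries, a change in RNA per cell and a change in the share of cells expressing a gene cannot be told apart. Ratios are given below with a 95% exact Clopper-Pearson interval of the ratio without a pseudocount, which covers counting error only, because the reads carry no molecular identifiers.

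**Figure D1:**
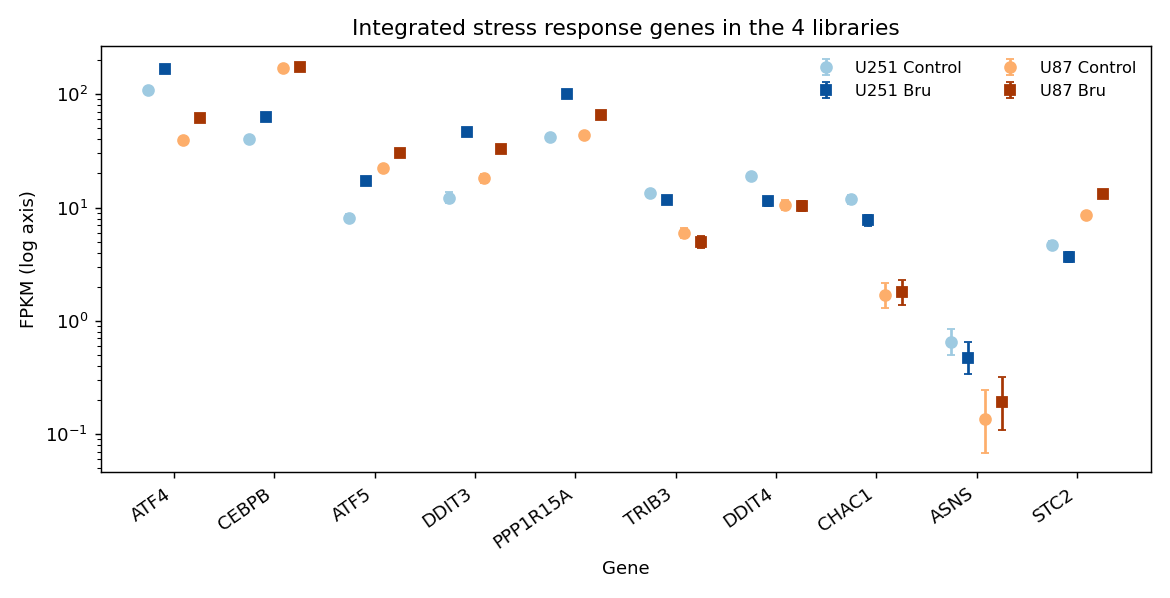
Level of the 10 genes in each library, in FPKM on a log axis, with 95% exact Poisson counting intervals. Circles are Control and squares Bru, blue for U251 and orange for U87. At the deposited lengths ATF4 was the highest of the 10 genes in both U251 libraries and CEBPB in both U87 libraries. ASNS was the lowest in every library at these lengths, but its level is uncertain because of an overlapping gene.

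ATF4 (ENSG00000128272, GRCh38 chromosome 22 from 39519695 to 39522685, plus strand), the bZIP factor that gives the response its transcriptional arm, was abundant in both lines. In U251 its level was 109 FPKM for Control and 168 for Bru, and in U87 it was 39.4 and 61.1, from 1790 to 7826 reads. It was higher in Bru in both lines and by nearly the same ratio. The ratio was 1.54 in U251 (log2 0.63, interval 0.58 to 0.68) and 1.55 in U87 (log2 0.63, interval 0.55 to 0.72), which is under the 2-fold cutoff in both. The log2 ratio in U251 minus that in U87 was -0.01, with a counting interval from -0.11 to 0.09. ATF4 has processed copies in the genome. ATF4P3 shares 11.5% of the 50-base stretches of ATF4 and had at most 15 reads, and ATF4P4 shares 9.55% and had at most 1.

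ATF5 (ENSG00000169136, chromosome 19 from 49928702 to 49933935, plus strand), a related factor whose mRNA is translated under similar control, stood at 8.07 FPKM in the Control and 17.2 in the Bru library of U251. The U87 libraries had 22.5 and 30.3 FPKM. U251 Control was the lowest of the 4 libraries, and U251 Bru stayed under both U87 libraries. ATF5 rose 2.13-fold in U251 (log2 1.08, interval 0.93 to 1.25), so that the interval reached below the cutoff, and was 1.35-fold higher in U87 Bru (log2 0.43, interval 0.32 to 0.54). Of the exon bases of ATF5, 23.7% are also exon of another gene, and 626 of these 700 bases belong to NUP62 on the opposite strand. NUP62 was at 30.0 and 24.7 FPKM in U251 Control and Bru and at 17.9 and 16.1 in U87.

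DDIT3 (ENSG00000175197, chromosome 12 from 57516588 to 57521737, minus strand) encodes CHOP, a C/EBP-family factor that promotes cell death when stress lasts. U251 had 12.2 FPKM (335 reads) as Control and 46.2 (1120 reads) with Bru, and U87 had 18.1 (428 reads) and 32.7 (745 reads). Both Bru libraries were above both Control libraries. DDIT3 rose 3.78-fold in U251 (log2 1.91, interval 1.74 to 2.10), where 84 of the 12949 genes had a higher log2 ratio. In U87 the ratio was 1.81 (log2 0.85, interval 0.68 to 1.03), with 319 genes higher. The difference between the lines was 1.06 on the log2 scale, with a counting interval from 0.82 to 1.31. Of the 9 genes, DDIT3 alone had a difference above 1 and none had one below -1, while 3.37% of all tested genes were above 1 and 5.11% below -1.

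CEBPB (ENSG00000172216, chromosome 20 from 50190734 to 50192689, plus strand), which encodes a bZIP partner of ATF4 and CHOP, was at 40.0 FPKM without and 62.6 with Bru in U251, and at 170.5 and 175 in U87. The U87 libraries lay close together and above both U251 libraries. The log2 ratio was 0.64 in U251 (interval 0.55 to 0.74) and 0.04 in U87 (interval -0.01 to 0.09), and a difference between Control and Bru of U87 was not detectable at this depth. The antisense gene CEBPB-AS1 covers 11.8% of the exon bases of CEBPB and had 3 to 39 reads.

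**Figure D2:**
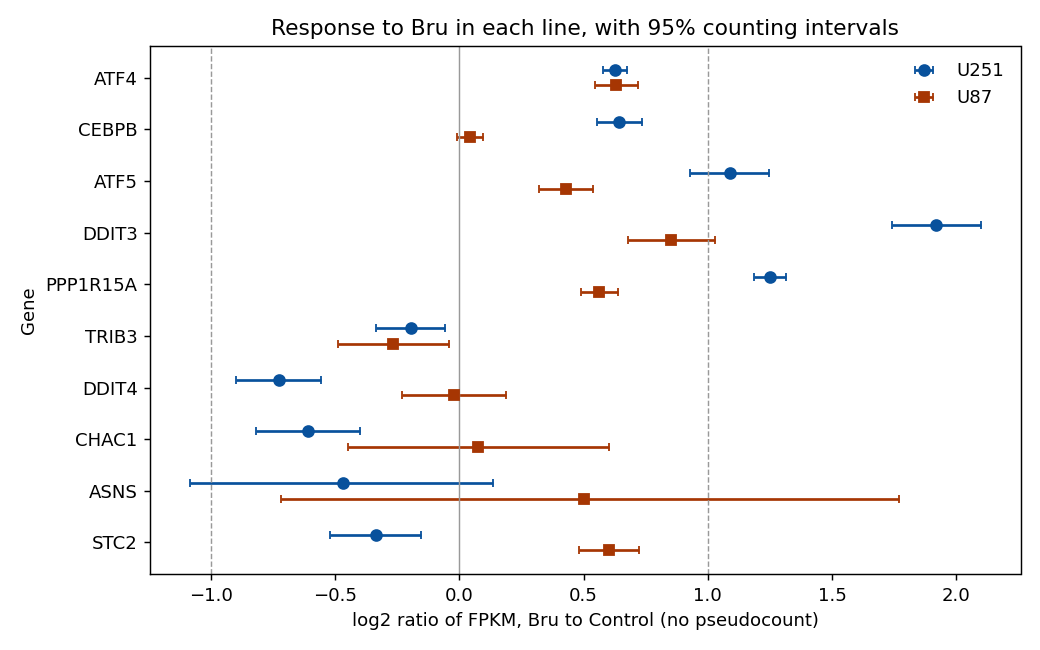
log2 ratio of FPKM in Bru to Control, without a pseudocount, for each gene in U251 (blue circles) and U87 (orange squares), with 95% exact counting intervals. Dashed lines mark 2-fold. In U251 the intervals of DDIT3 and PPP1R15A lie wholly above 2-fold, in U87 no interval does, and the wide intervals of ASNS rest on 11 to 61 reads per library.

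PPP1R15A (ENSG00000087074, chromosome 19 from 48872392 to 48876057, plus strand) encodes GADD34, the inducible subunit of the eIF2 phosphatase. The Control libraries had 42.3 FPKM in U251 and 44.0 in U87, and the Bru libraries had 101 and 65.1, from 2462 to 5764 reads. The Control levels were close (log2 ratio of U87 to U251 0.06, interval -0.02 to 0.14) and both Bru libraries were above them. PPP1R15A rose 2.38-fold in U251 (log2 1.25, interval 1.19 to 1.32) and was 1.48-fold higher in U87 Bru (log2 0.56, interval 0.49 to 0.64). No base of its exons is shared with another gene, which among the 3 genes that rose in U251 was true of PPP1R15A only. PPP1R15B, the constitutive subunit of the same phosphatase, was at 25.6 FPKM in Control and 29.6 in Bru of U251, and at 8.44 and 9.20 in U87. Its log2 ratios were 0.21 and 0.12. The level of PPP1R15A was 1.65 times that of PPP1R15B in Control and 3.39 times in Bru of U251, and 5.22 and 7.07 times in U87. These ratios are taken within a library and do not depend on the scaling between libraries.

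TRIB3 (ENSG00000101255, chromosome 20 from 362835 to 397559, plus strand) encodes a pseudokinase that is a target of ATF4 and CHOP and restrains AKT and ATF4. Its level in U251 was 13.4 FPKM for Control and 11.7 for Bru, and in U87 it was 5.99 and 4.99. Both Bru libraries were slightly below their Control, with log2 ratios of -0.19 (interval -0.34 to -0.06) and -0.26 (interval -0.49 to -0.04). The level of TRIB3 relative to ATF4 was 0.123 in U251 Control and 0.0695 in U251 Bru, and 0.152 and 0.0816 in U87.

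DDIT4 (ENSG00000168209, chromosome 10 from 72273920 to 72276036, plus strand) encodes REDD1, an inhibitor of mTORC1 signalling. In U251 it had 18.8 FPKM as Control and 11.4 with Bru, while U87 had 10.5 and 10.4. U251 Control stood above the other 3 libraries. The log2 ratio was -0.72 in U251 (interval -0.90 to -0.56), the lowest of the 9 tested genes there, and -0.02 in U87 (interval -0.23 to 0.19). The antisense gene DDIT4-AS1 covers 41.2% of its exon bases and was listed at 0 in all 4 libraries.

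CHAC1 (ENSG00000128965, chromosome 15 from 40952962 to 40956519, plus strand) encodes an enzyme that degrades glutathione and is a known target of ATF4. The U251 libraries had 11.8 FPKM (509 reads) for Control and 7.73 (295 reads) for Bru, and those of U87 had 1.69 (63 reads) and 1.79 (64 reads). Both U251 libraries were above both U87 libraries. The log2 ratio was -0.60 in U251 (interval -0.82 to -0.40) and 0.07 in U87 (interval -0.45 to 0.60), where no difference was detectable at this depth. Relative to ATF4, CHAC1 was at 0.108 in U251 Control and 0.0460 in U251 Bru, and DDIT3 at 0.112 and 0.275. In U87 Control and Bru, CHAC1 was at 0.0430 and 0.0292 and DDIT3 at 0.460 and 0.536, so DDIT3 in U87 Control was already above U251 Bru.

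ASNS (ENSG00000070669, chromosome 7 from 97852118 to 97872542, minus strand) encodes asparagine synthetase and is a classical target of ATF4. It was listed at 0.653 FPKM (61 reads) for Control and 0.472 (39 reads) for Bru in U251, and at 0.137 (11 reads) and 0.193 (15 reads) in U87. The log2 ratios of -0.40 and 0.31 had intervals that included 0, from -1.09 to 0.14 and from -0.72 to 1.77. ASNS was not counted among the tested genes. An overlapping gene on the same strand, AC079781.5, covers 1985 of its 4455 exon bases and 84.3% of its main transcript, and that gene had between 6 and 33 reads per library. How reads on both genes were assigned is not given in the sources used here, so the level of ASNS is uncertain. Divided by its unshared bases alone, its reads would give 1.18 and 0.852 FPKM in U251 and 0.246 and 0.349 in U87. Those 2470 bases include exons outside the main transcript, which has 2356 bases with 1985 of them shared. If all reads counted for ASNS fell on the unshared bases of the main transcript, the levels would be higher, which was not computed. Its place below the other genes and under 1 FPKM is therefore not settled.

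STC2 (ENSG00000113739, chromosome 5 from 173314713 to 173329503, minus strand), which encodes the secreted glycoprotein stanniocalcin 2, was the only gene of the 10 whose counting intervals excluded 0 on opposite sides in U251 and U87. U251 had 4.63 FPKM as Control and 3.66 with Bru, and U87 had 8.64 and 13.1. Bru was below Control in U251 and above it in U87. The log2 ratio was -0.33 in U251 (interval -0.52 to -0.15) and 0.60 in U87 (interval 0.48 to 0.72), a difference of -0.93 with a counting interval from -1.16 to -0.72.

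The plot of both lines places these ratios among those of all tested genes.

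**Figure D3:**
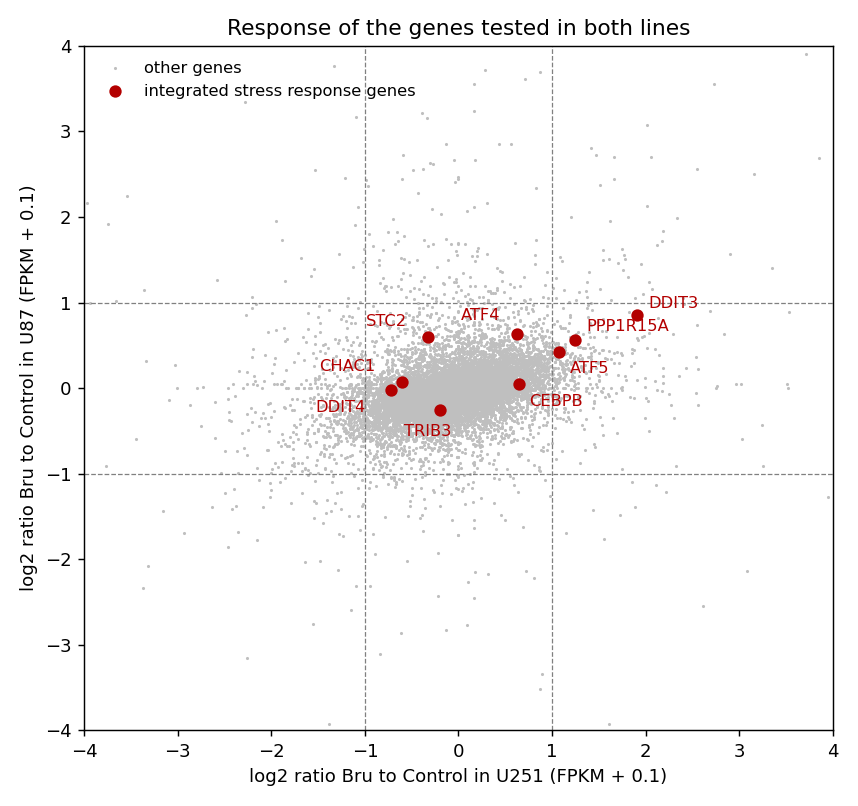
log2 ratio, Bru to Control, of FPKM + 0.1 in U251 (x axis) and U87 (y axis) for tested genes, grey, with the 9 tested integrated stress response genes in red. Dashed lines mark 2-fold, and 67 genes lie outside the axes. DDIT3, PPP1R15A and ATF5 lie past 2-fold on the x axis, and none of the 9 lies past it on the y axis.

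Besides DDIT3 and STC2, the counting interval of the difference between the lines excluded 0 for 5 genes. ATF5, CEBPB and PPP1R15A had a higher log2 ratio in U251, by 0.65 (interval 0.47 to 0.85), 0.60 (0.50 to 0.71) and 0.69 (0.59 to 0.79). CHAC1 and DDIT4 had a lower one in U251, by -0.67 (interval -1.23 to -0.14) and -0.70 (-0.97 to -0.44). For ATF4, TRIB3 and ASNS the interval included 0. These intervals cover counting error only, so a small difference between single libraries can exclude 0. The share of all tested genes whose interval excluded 0 was not computed, so the count is not read as particular to these genes.

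The Control libraries of the lines differed in which of these genes were high. The level in U87 Control was more than 2-fold above that in U251 Control for CEBPB (log2 ratio 2.09, interval 2.01 to 2.17) and ATF5 (log2 ratio 1.47, interval 1.33 to 1.63). It was more than 2-fold below for CHAC1 (-2.73, interval without a pseudocount -3.20 to -2.42), ATF4 (-1.46, interval -1.54 to -1.39) and TRIB3 (-1.14), whose interval from -1.33 to -0.98 reached the cutoff. ASNS, with 61 reads against 11, was also lower in U87 Control (-1.67) but was not among the tested genes. Over all tested genes, 14.5% were higher and 16.0% lower in U87 Control past 2-fold. These Control libraries also enter the ratios to Bru, so the Control levels and the responses are not independent of each other.

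Within U251 Control the order of the levels from the highest was ATF4, PPP1R15A, CEBPB, DDIT4, TRIB3, DDIT3, CHAC1, ATF5, STC2 and ASNS. The Poisson intervals of PPP1R15A and CEBPB overlapped, as did those of TRIB3, DDIT3 and CHAC1. In U251 Bru, DDIT3 and ATF5 stood above TRIB3 and DDIT4, whose intervals overlapped, and above CHAC1. In U87 Control the order was CEBPB, PPP1R15A, ATF4, ATF5, DDIT3, DDIT4, STC2, TRIB3, CHAC1 and ASNS. In U87 Bru it differed in that DDIT3 and ATF5 overlapped, as did PPP1R15A and ATF4, and STC2 lay above DDIT4. The summed level of the 10 genes was 261 FPKM for Control and 429 for Bru of U251, and 322 and 395 for U87, with ATF4, PPP1R15A and CEBPB the 3 most abundant of them in every library at the deposited lengths. These orders depend on how reads on shared exon bases were counted, which affects ASNS, DDIT4, DDIT3, ATF5 and CEBPB. With reads divided by unshared bases alone, DDIT3 would be at 20.2 FPKM in U251 Control, above TRIB3 at 13.4, and at 76.6 in U251 Bru, above CEBPB at 70.9. In U87 Control DDIT3 would then be at 30.0 and ATF5 at 29.5.

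Exon bases shared with other genes differ between the 10 genes. Whether strand was used in library preparation or counting is not given in the sources used here.

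For DDIT3 the shared bases belong to MARS (355 bases) and MBD6 (58 bases) on the opposite strand and AC022506.1 (105 bases) on the same strand. MARS was at 25.7 FPKM in Control and 22.5 in Bru of U251, and at 22.8 and 22.1 in U87. Its log2 ratio was -0.19 in U251 (interval -0.26 to -0.12). In U87 it was -0.05 (interval -0.12 to 0.03), and no difference was detectable at this depth. Reads of overlapping genes on opposite strands cannot be told apart where strand is not used.

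Genes that set the phosphorylation of eIF2 were read next, from a list of the eIF2 kinases, eIF2, its exchange factor eIF2B and the phosphatase. Of its 16 genes, all tested, 1 fell past 2-fold in U251, none rose, and the median log2 ratio was 0.07. In U87 none passed 2-fold and the median was -0.09. The shares of all tested genes were 3.36% rising and 5.44% falling in U251 and 1.92% and 1.41% in U87. A single gene falling among 16 is therefore not read as particular to this list. The gene that fell was EIF2AK3, which encodes PERK, the kinase of the endoplasmic reticulum. It had 5.19 FPKM in Control and 2.44 in Bru of U251, and 4.34 and 3.29 in U87, log2 ratios of -1.06 (interval -1.31 to -0.87) and -0.39. The other kinases had log2 ratios of -0.25 and -0.15 (EIF2AK1, HRI), -0.23 and -0.10 (EIF2AK2, PKR) and 0.01 and -0.14 (EIF2AK4, GCN2) in U251 and U87. The highest mean ratios of this list were those of the eIF2B subunits EIF2B4 (0.96 in U251 and -0.11 in U87) and EIF2B3 (0.64 and -0.09), and PPP1CA, a catalytic subunit, was next lowest after EIF2AK3 (-0.30 and -0.10).

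Among 28 tested bZIP factors, of 30 listed besides the 10 genes, 2 fell past 2-fold in U251 and none rose, with a median of -0.26. In U87, 2 rose and none fell, with a median of -0.03. Of all tested genes, 5.44% fell in U251 and 1.92% rose in U87, and the all-gene medians were -0.03 and -0.04, so the U87 median is that of genes at large. ATF3, a stress-induced factor and target of ATF4, was at 36.1 FPKM in Control and 41.5 in Bru of U251, and at 9.47 and 27.7 in U87. It rose in U87 (log2 1.54) and had a log2 ratio of 0.20 in U251, so that its U87 Bru level was still below U251 Control. FOSB, an immediate early factor, was the other that rose in U87 (log2 1.69), with 0.07 in U251. CEBPD (-1.13) and JUND (-1.12), the first an acute-phase C/EBP factor, were the 2 that fell in U251, with -0.05 and -0.02 in U87, and JUND was named after its values were seen. XBP1, the factor of the unfolded protein response, had log2 ratios of -0.53 and -0.77.

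ATF4 is known to drive genes of amino acid synthesis and of the folate cycle fed by serine. Of 12 such genes, 10 were tested and none passed 2-fold in either line. Genes at large rose in 3.36% and fell in 5.44% of cases in U251, and in 1.92% and 1.41% in U87. In U251, 9 of the 10 were below 0 with a median of -0.55, and in U87 6 were below 0 with a median of -0.03. By the mean of both lines the lowest were PYCR1 (-0.74 in U251 and -0.53 in U87) and ALDH18A1 (-0.55 and -0.54), both of proline synthesis, and the highest SHMT2 (0.11 and 0.15) and CTH (-0.26 and 0.36).

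Of 8 tested genes of amino acid transport, from a list of 9, 1 rose and 2 fell past 2-fold in U251 and none passed it in U87. The medians were -0.39 in U251 and -0.09 in U87. Among all tested genes 3.36% rose and 5.44% fell in U251, and 1.92% rose and 1.41% fell in U87. SLC3A2, the heavy chain that brings several transporters to the membrane, was at 47.7 FPKM in Control and 154 in Bru of U251, and at 65.9 and 99.6 in U87, log2 ratios of 1.69 and 0.60. SLC1A4 (-1.43 and -0.77) and the glycine transporter SLC6A9 (-1.30 and -0.55) were the 2 that fell in U251. SLC7A11, the cystine carrier that pairs with SLC3A2, had -0.24 in U251 and 0.33 in U87.

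Genes that charge or export tRNA, another group of ATF4 targets, numbered 13, all tested. None passed 2-fold, and the medians were 0.15 in U251 and -0.05 in U87. The shares past 2-fold over all tested genes were 3.36% rising and 5.44% falling in U251 and 1.92% and 1.41% in U87. By the mean of both lines the highest were YARS (0.54 and 0.25) and WARS (0.39 and 0.17), and the lowest EPRS (-0.06 and -0.20) and the tRNA exporter XPOT (-0.17 and -0.08).

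Among 18 tested stress signalling targets of ATF4 and CHOP, of 20 listed, 1 rose and 2 fell in U251, with a median of -0.30, and 1 rose in U87, with a median of 0.07. The shares of all tested genes were 3.36% rising and 5.44% falling in U251 and 1.92% rising in U87. The gene of this list that rose in U251 was SQSTM1, the autophagy receptor p62, which is also a known target of NRF2. Its level in U251 was 118 FPKM without and 507 with Bru, and in U87 203 and 278, log2 ratios of 2.10 and 0.45. GDF15, a stress-induced cytokine, fell in U251 from 142 to 13.9 FPKM (log2 -3.34), and was at 53.9 and 67.0 FPKM in U87 Control and Bru (log2 0.31). BBC3, the BH3-only protein PUMA, was the other that fell in U251 (-1.14), with 0.43 in U87, and was named after its values were seen. With a pseudocount of 1 BBC3 was at -0.80 and no longer past 2-fold. JDP2, a bZIP repressor, had -0.76 and -0.39. The gene that rose in U87 was ATF3, which like JDP2 also stands in the bZIP list.

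Targets of XBP1 and ATF6, the other arms of the unfolded protein response, were all below 0 in both lines at the deposited scaling. Of 17 genes, all tested, 4 fell past 2-fold in U251 and none in U87, and the medians were -0.64 and -0.38. Over all tested genes 5.44% fell in U251 and 1.41% in U87, with medians of -0.03 and -0.04. PDIA4 (-1.89 and -0.68) and PDIA6 (-1.05 and -0.46), both protein disulfide isomerases, were the lowest by their mean, while HSP90B1 (-1.03 in U251) and EDEM1 (-1.02), named after their values were seen, were the other genes that fell. SEL1L (-0.19 and -0.01) and DNAJC3 (-0.20 and -0.33) were the highest. Rescaling to the 75th percentile put 2 of the 17 genes above 0 in U87 and left 2 of the 4 past 2-fold in U251, without HSP90B1 (-0.98) and EDEM1 (-0.97).

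**Figure D4:**
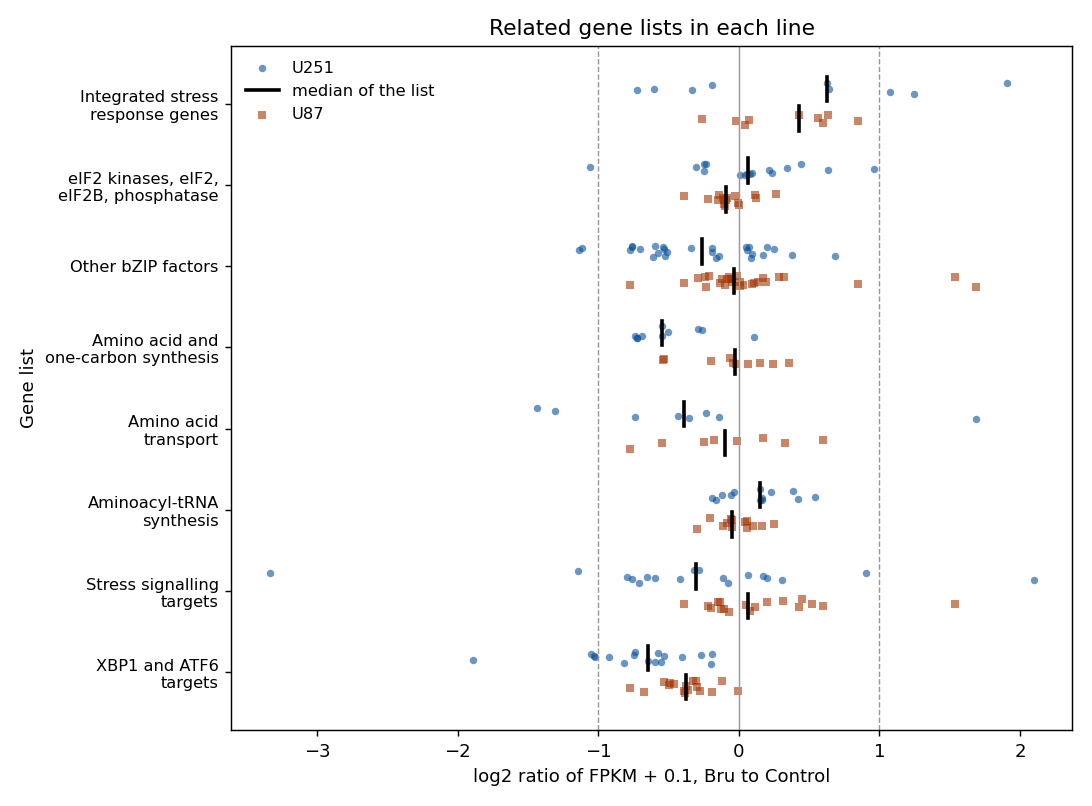
log2 ratio, Bru to Control, of FPKM + 0.1 for the tested genes of each list in U251 (blue circles) and U87 (orange squares), spread vertically at random for sight. Black bars are list medians and dashed lines 2-fold. The medians of the integrated stress response genes are 0.63 and 0.43, those of the XBP1 and ATF6 targets are -0.64 and -0.38, and at this scaling every gene of the latter list lies below 0.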

How the data were processed

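RNA of 4 cultures, Control and Bru of U251 and U87, was sequenced as paired-end reads from libraries of the NEB Next Ultra kit, per the labels. The authors deposited FPKM per gene, fragments scaled to the gene length in the file and to a library size they do not state. The submitters' processing notes name HISAT2 2.0.5, StringTie 1.3.3b, featureCounts 1.5.0-p3 and DESeq2 1.16.1 without their roles, and the build hg18. The gene coordinates of all 58735 genes equal those of GENCODE 29 on GRCh38, which were used here. Treatment of reads on overlapping genes and the use of strand are not given in the sources used here.

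FPKM times gene length was a whole multiple of 1 step for 100% of the values above 0 (tolerance 0.001 reads, largest deviation 5.10e-05), which gave reads per gene and library sizes of 20974002, 18533374, 18070193 and 17406238 inside the FPKM. These reads served for intervals only, since a count test has no replicates here. Log2 ratios used FPKM + 0.1, which understates the change of low genes, where the mean over the 4 libraries reached 1 FPKM. Differences past 2-fold were counted. Intervals are 95%, exact Clopper-Pearson for ratios, exact Poisson for levels and normal approximations on the log scale for the difference between lines. They carry no replicate error, and p-values were not computed.

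The genes named are the 10 genes, the eIF2 kinases, PPP1R15B, ATF3, the 2 highest and 2 lowest of each related list by the mean of both log2 ratios, and genes overlapping or copying the 10. JUND, BBC3, HSP90B1 and EDEM1 were added, and FOS and CEBPA are named because a changed setting put them past 2-fold. The 10 genes and the lists were chosen with earlier results of these data known. Exon overlaps, leaders (main coding transcript by APPRIS) and shared 50-base stretches came from GENCODE 29, and promoters from RefSeq. Alternatives were other pseudocounts (1 and 0.01), other scalings (median ratio of 0, 75th percentile, TPM), no filter, a minimum of 5 FPKM, and calls on the whole counting interval. Scripts ran in Python 3.11.15 with numpy 2.4.6, pandas 2.3.3 and scipy 1.17.1 and were tested on simulated data.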

Additional observations from a re-analysis of the deposited data

Results flagged for a closer look

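Of the 114 tested genes of all lists, the 10 genes included, 16 had counting intervals on opposite sides of 0 in U251 and U87. Of these, 13 were lower in U251 Bru and higher in U87 Bru and 3 the reverse. The share of all tested genes with such intervals was not computed, so neither count is read as particular to these lists. Of the 16, 4 are genes named here and 12 are not. The difference was not tested, because each value compares 2 single libraries. STC2, the secreted glycoprotein, had a log2 ratio in U251 minus U87 of -0.93, from 4.63 to 3.66 FPKM in U251 and from 8.64 to 13.1 in U87. SLC7A11, the cystine carrier, had -0.57, from 18.9 to 16.0 FPKM in U251 and from 3.68 to 4.65 in U87. GDF15, the stress-induced cytokine, had -3.65, from 142 to 13.9 FPKM and from 53.9 to 67.0. BBC3, the BH3-only protein PUMA, had -1.57, from 203 to 78 reads and from 181 to 237.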

How the results depend on the processing

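No paired analysis was possible because each line and condition has 1 library, and no replicate could be left out for the same reason. The 3 genes above 2-fold in U251 and the absence of any below it held under each pseudocount and scaling tried. Of these, 2 of the 3 (DDIT3 and PPP1R15A) also passed with the whole counting interval. A filter does not alter a ratio, so the filters could change only which of the 10 genes were counted, and these counts stayed the same. ATF5 ranged from 1.001 to 1.13 on the log2 scale. Rescaling to the 75th percentile moved the median of all genes in U87 by 0.14, to 0.10. Under it the median of the 9 genes was 0.67 in U251 and 0.58 in U87, DDIT3 reached 1.002 in U87 (0.90 above that median of all genes) so that 1 gene counted as higher there, and between the lines 0 genes were above 1 (DDIT3 0.96) and 1 was below -1 (STC2 -1.03). Without a filter, which adds ASNS, the median of the 10 genes in U251 was 0.22. No sign of a value past 2-fold turned. Values near 0 changed sign with the scaling or pseudocount: DDIT4 in U87 (-0.03 to 0.13), PPP1R15A between the Control libraries (-0.01 to 0.08), and the difference between lines for ATF4 (-0.11 to 0.03) and TRIB3 (-0.03 to 0.10). The U87 medians of the related lists lay near 0 and turned positive at the 75th percentile for the eIF2 list (0.06), other bZIP factors (0.12), amino acid synthesis (0.12), transport (0.06) and tRNA synthesis (0.11), whereas the XBP1 and ATF6 targets stayed at -0.23. In the lists, a pseudocount of 1 took EIF2AK3 (-0.85), BBC3 (-0.80) and EDEM1 (-0.97) inside 2-fold in U251, a median of 0 took EDEM1, and the 75th percentile took EDEM1 and HSP90B1 and put EIF2B4 (1.008) past it, as it did FOS (1.001) in U87. A pseudocount of 0.01 put the low gene CEBPA (1.67) past it in U87, and a minimum of 5 FPKM left out EIF2AK3, BBC3, SLC1A4 and SLC6A9. Depth limited ASNS in both lines and CHAC1 in U87, whose intervals were the widest of the 10 genes.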
